A study of Mus musculus with 24 samples.

Results

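The 9 genes *Aqp4*, *Slc1a2*, *Slc1a3*, *Glul*, *Gja1*, *Gjb6*, *Aldh1l1*, *Slc4a4* and *Slc6a11* encode the transport, metabolic and coupling machinery of resting astrocytes, and they were followed in the mouse hippocampus after deletion of *Tsc1* from neurons. They were chosen by name as genes of astrocyte water, glutamate, GABA and gap junction handling, and all 9 were found among the 55385 gene identifiers counted. RNA-Seq was performed on 24 adult mice of both sexes in 6 groups of 4. All mice were Tsc1f/f, carrying floxed *Tsc1* alleles, and all received tamoxifen. The *Tsc1-Cre-* controls, Tsc1f/f-Tg(Camk2a-CreERT2-), kept *Tsc1* and were taken on day 8. The other groups were Tsc1f/f-Tg(Camk2a-CreERT2+), taken on day 4, 6, 8 or 13 without a drug, or on day 13 after daily rapamycin at 10 mg/kg from day 4 (*Tsc1-Cre+*-Rap 4). Rapamycin inhibits mTORC1, the kinase complex that the TSC1 protein restrains. Because the *Camk2a* promoter drives the tamoxifen-dependent Cre, the deletion was directed at CAMK2A-positive neurons and not at astrocytes.

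Astrocytes take up the glutamate and GABA released at synapses, convert glutamate to glutamine for return to neurons, and clear water and potassium through endfeet on blood vessels. Neighboring astrocytes share ions and metabolites through connexin channels, and they buffer pH with bicarbonate. In chronic epilepsy and in reactive astrocytes these tasks are known to be disturbed, which is why their genes are often measured beside *Gfap*, the intermediate filament gene that marks reactivity.

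The upstream sequences of 4 members are shown because these genes fell on day 6 (*Glul*, *Gja1* and *Slc1a3* beside others) or form the pair of astrocyte connexins (*Gja1* and *Gjb6*). Each is the 250 bases before the RefSeq start on build GRCm38.p6, read 5′ to 3′ on the strand of the gene. Capitals mark the letters of a motif found on either strand.
Gja1 (chr10:56377050-56377299, plus strand): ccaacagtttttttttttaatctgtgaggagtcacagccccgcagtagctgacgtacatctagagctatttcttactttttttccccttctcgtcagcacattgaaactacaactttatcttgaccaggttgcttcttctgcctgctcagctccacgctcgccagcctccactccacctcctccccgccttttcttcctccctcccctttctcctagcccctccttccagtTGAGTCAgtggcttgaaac
Gjb6 (chr14:57133612-57133861, minus strand): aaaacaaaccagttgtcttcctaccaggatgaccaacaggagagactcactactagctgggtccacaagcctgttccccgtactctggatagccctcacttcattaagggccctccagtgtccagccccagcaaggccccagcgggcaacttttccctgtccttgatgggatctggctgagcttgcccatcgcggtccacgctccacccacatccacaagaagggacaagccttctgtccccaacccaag
Glul (chr1:153899679-153899928, plus strand): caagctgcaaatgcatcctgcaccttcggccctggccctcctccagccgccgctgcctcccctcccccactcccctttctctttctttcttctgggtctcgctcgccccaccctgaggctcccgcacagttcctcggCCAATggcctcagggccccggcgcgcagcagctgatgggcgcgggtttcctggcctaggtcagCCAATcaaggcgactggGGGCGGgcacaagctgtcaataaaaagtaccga
Slc1a3 (chr15:8710808-8711057, minus strand): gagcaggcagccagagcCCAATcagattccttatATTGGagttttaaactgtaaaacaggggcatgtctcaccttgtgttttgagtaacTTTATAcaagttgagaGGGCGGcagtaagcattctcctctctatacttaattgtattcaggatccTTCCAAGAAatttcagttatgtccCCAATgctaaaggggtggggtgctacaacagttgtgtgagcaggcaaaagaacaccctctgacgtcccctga

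RefSeq windows were found for 8 of the 9 members. The motifs searched on both strands were the TATA box TATAAA, the CCAAT box CCAAT, the GC box GGGCGG, the E-box CACGTG, the STAT motif TTCNNNGAA, the AP-1 motif TGANTCA, the cAMP response element TGACGTCA, the NFI short site TTGGCA, the palindromic NFI site, and the SOX motif ACAATG. The palindromic NFI site holds the short one where its middle starts with A, and CCAAT boxes and NFI sites can share bases. The GC box was found in 5 of the 8 members (*Slc1a3*, *Glul*, *Aldh1l1*, *Slc4a4* and *Slc6a11*) and in 32.7% of all 32851 windows of this length. The CCAAT box was found in 4 (*Slc1a3*, *Glul*, *Aldh1l1* and *Slc4a4*) and in 33.8% of all windows. *Slc4a4* had more than a single window. Its GC box lay in the window 442 bases from the GENCODE gene start, and its CCAAT box in another, 141148 bases from it. A share per window is therefore not a like measure for this gene. The windows of *Slc1a2* and *Aldh1l1* lay 47779 and 64366 bases from the GENCODE start. The TATA box (12.4% of windows) and the STAT motif (7.02%) were found in *Slc1a3* alone among the members, and the AP-1 motif (6.75%) in *Gja1* alone. The E-box (6.02% of windows), the cAMP response element (1.55%), the NFI short site (12.3%), the palindromic NFI site (0.0365%) and the SOX motif (10.7%) were found in no member window. The windows above hold no motif shared by *Gja1* and *Gjb6*.

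Total counts per mouse ranged from 28208561 to 126435936, and the lowest count of any member in any mouse was 856. The level of *Tsc1* was 105 CPM in controls (CPM, the read count scaled for depth with edgeR's TMM factors) and between 63.6 and 78.4 CPM in the means of the 5 *Tsc1-Cre+* groups. In the names of the deposited tables, controls and day 8 mice carry animal numbers of the same series and the other groups carry numbers of other series, so group and animal series cannot be told apart for day 4, day 6, day 13 and *Tsc1-Cre+*-Rap 4. Whether a series marks a cohort is not stated in the sources used here. On day 13, mice A and B share a number series, have more counts (69971957 and 126435936) than mice C and D (38423852 and 41101425) and stand apart from mice C and D in most members, so the day 13 values of the members are also given without them. In bulk RNA of a tissue, the cell type that a read came from is not known. Fewer astrocytes, less RNA per astrocyte and a larger share of RNA from other cells cannot be told apart. Choroid plexus markers varied between mice of every group, from 64.2 to 1713 summed CPM in controls, and their part in the results was not tested. The 20 genes of an astrocyte identity list were detected in all groups, with 1814 to 1893 summed CPM in controls.

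The 9 genes together held 0.715% to 0.736% of all counts in the control mice. Per kilobase of exon, *Glul* (385 ± 13.8 CPM per kb, SD, n = 4) and *Slc1a2* (342 ± 15.5) were the most abundant members in controls, and *Aldh1l1* (9.87 ± 0.369) the least. *Slc1a3* followed at 57.6 CPM per kb and *Slc4a4* at 28.7. *Aqp4* stood at 26.8, *Gja1* at 17.3, *Slc6a11* at 14.6 and *Gjb6* at 12.4 CPM per kb. With the longest transcript as the length, *Gja1* moved from the sixth to the fourth place, at 45.6 CPM per kb. The members varied little among the controls, with a median coefficient of variation of 3.88%. Over 18259 genes at 1 CPM or more it was 7.07%, a set not matched to the members in level. On day 6 the median was 3.52% against 6.28% over all genes. On day 13 it was 37.3% against 15.5%, so the median member spread more between these mice than the median gene did.

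**Figure D1:**
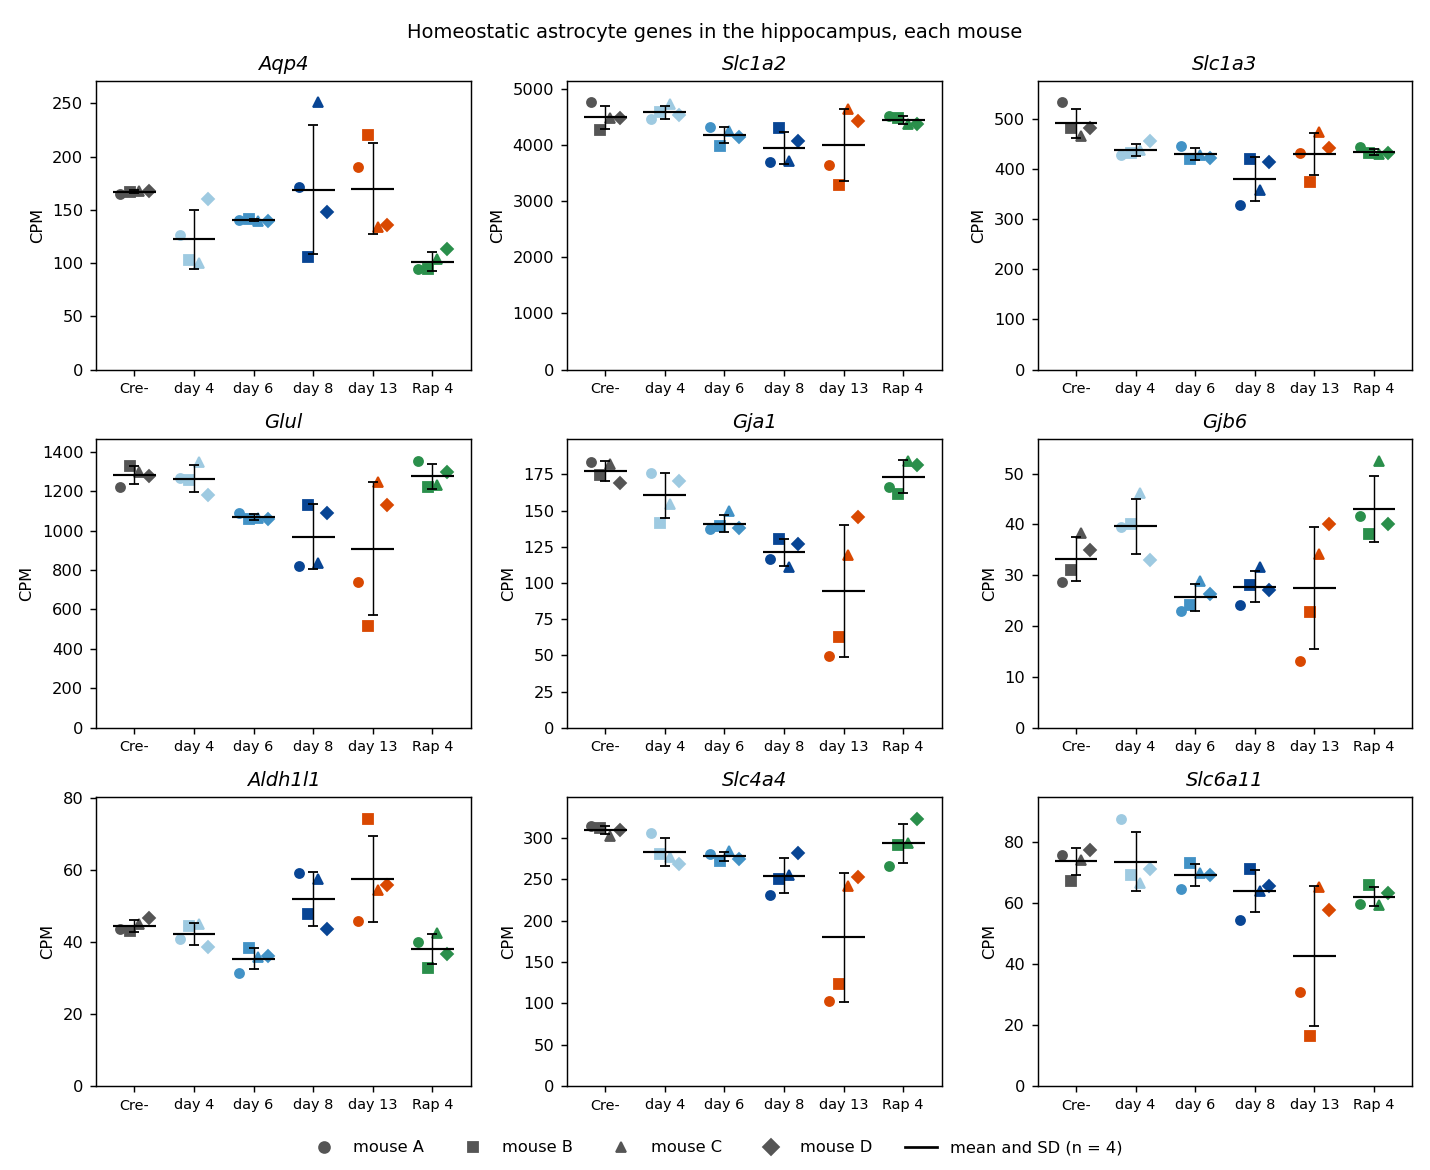
Level of each of the 9 genes in CPM (y axis, from 0) in every mouse of the 6 groups (x axis), with mouse letters as marker shapes, the group mean as a line and the SD as a bar. *Gja1* and *Slc4a4* in day 13 mice A and B lie below all other mice, and *Aqp4* lies lowest in the *Tsc1-Cre+*-Rap 4 group.

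Each group was compared with the controls to follow the hippocampus over the days after tamoxifen. A gene was taken to have risen or fallen at an adjusted p under 0.05 in edgeR's quasi-likelihood test, fitted over all genes, and was called differentially expressed (DE) when the log2 fold change also exceeded 0.5 in size. On day 4, 0 of the 9 members were DE, against 0.680% of all genes tested. *Aqp4* alone fell (1 of 9, against 1.56% of all genes), and 5 of 9 had an unadjusted p under 0.05, beside 4654 of the 25308 genes tested. DESeq2 also called 0 members DE on day 4. On day 6, 7 of 9 members fell, against 3.81% of all genes, none rose, and all 9 fitted changes were negative with a median log2 fold change of -0.26 (all genes -0.02). None of the 7 reached the fold minimum, so 0 members were DE against 1.32% of all genes, with 8 at an unadjusted p under 0.05 (beside 6076 of 25057 genes) and 0 DE in DESeq2. The 4 mice of day 6 lay below all 4 controls in 6 of 9 members, against 6.19% of all genes. In 1 fit of all 24 mice, 84 genes were DE on day 6 in place of 332. Values of the members on day 6 against controls in that fit are not given here.

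On day 8, 4 of 9 members fell, against 4.87% of all genes, and 1 of these, *Gja1*, was DE, against 3.99% of all genes in either direction. All day 8 mice lay below all controls in 4 members, against 8.01%. On day 13, 1 member fell and was DE, again *Gja1*, against 11.3% of all genes that fell and 16.5% that were DE, so the share of members was no higher than the share of all genes. All day 13 mice lay below all controls in 3 members, against 13.7% of all genes. Without day 13 mice A and B, 0 members were DE, while *Aqp4*, *Gja1*, *Slc4a4* and *Slc6a11* fell and *Aldh1l1* rose at an adjusted p under 0.05. Mice A and B were left out after the data were seen, so this fit is a description and no independent test. In this fit of day 13 mice C and D against the controls, 2504 genes were DE. The share of all genes that fell or rose in it is not given here, so these changes cannot be set against it. In *Tsc1-Cre+*-Rap 4 mice, 2 members fell, against 2.31% of all genes, and 1 of them, *Aqp4*, was DE, against 1.41%. The rapamycin mice did not overlap the controls in 4 members, all lower, against 11.9% of all genes in either direction. These comparisons share the same 4 control mice, all taken on day 8. Genotype and day after tamoxifen therefore cannot be told apart on day 4, 6 or 13. The *Tsc1-Cre+*-Rap 4 mice differ from controls in genotype, day and drug, and no *Tsc1-Cre-* mice were given rapamycin. The median log2 fold change of the members was -0.08 on day 4, -0.28 on day 8, -0.29 on day 13 and -0.08 under rapamycin, beside medians over all genes of -0.0047, -0.03, -0.04 and 0.01. In an F test over the 6 groups, 7 of 9 members passed, against 41.9% of all genes. *Slc1a2* (edgeR adjusted p = 0.0829) and *Slc6a11* (edgeR adjusted p = 0.0668) did not.

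**Figure D2:**
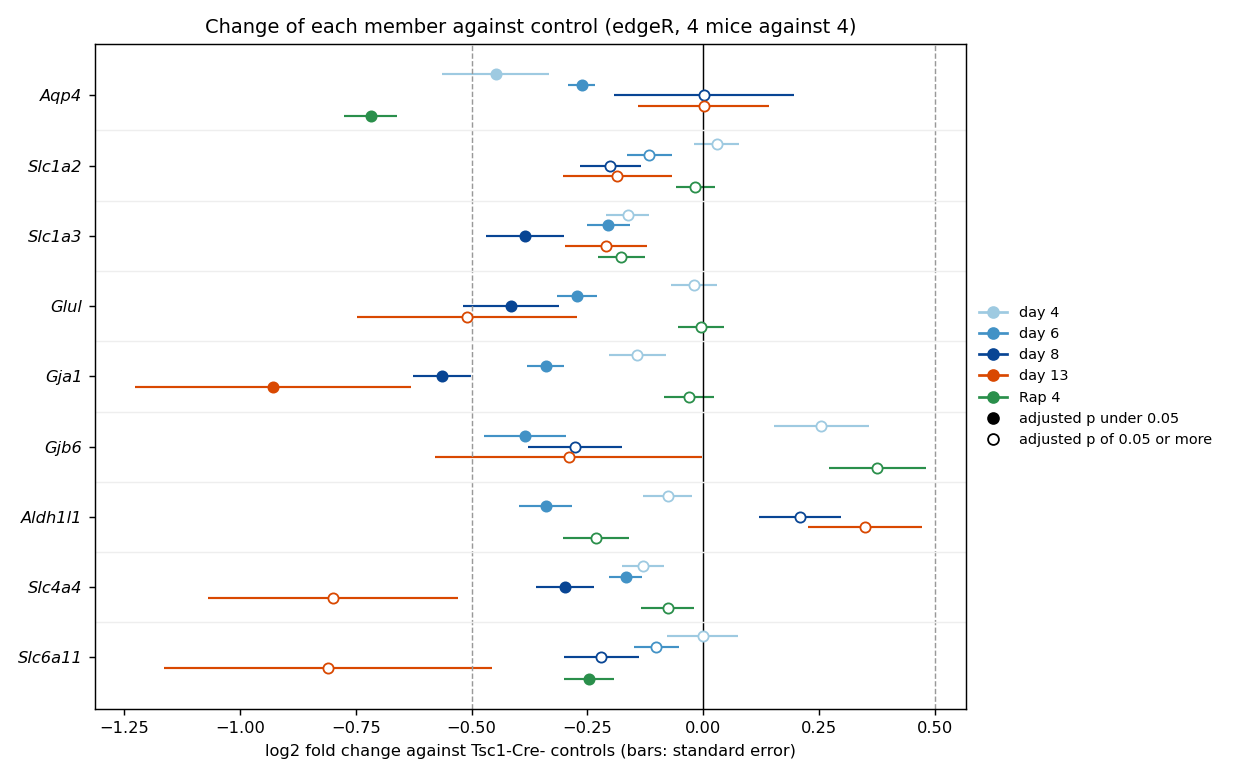
Fitted log2 fold change against *Tsc1-Cre-* controls (x axis) of each gene (y axis) in the 5 *Tsc1-Cre+* groups, with standard errors as bars and filled points at an adjusted p under 0.05. The 9 day 6 points all lie left of 0, and the widest bars belong to day 13.

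The steps between time points were compared as well. From day 4 to day 6, 4 of 9 members fell, against 1.80% of all genes, and *Gjb6* was DE, against 0.604% of all genes. From day 6 to day 8, *Aldh1l1* alone rose and was DE, against 0.229% of all genes that were DE. From day 8 to day 13, edgeR called 0 members and 0.00% of all genes DE. In that step 0 members had an unadjusted p under 0.05 and DESeq2 called 0 members, while over all genes 3479 had an unadjusted p under 0.05 and DESeq2 called 238. Between *Tsc1-Cre+*-Rap 4 and day 13 mice, both taken on day 13, *Gja1* was higher and *Aqp4* and *Aldh1l1* were lower under rapamycin, which makes 3 DE members of 9 against 21.1% of all genes. Without day 13 mice A and B 1 of these, *Aldh1l1*, stayed DE, beside 3328 genes DE in that fit.

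*Aqp4* encodes aquaporin-4, the water channel of astrocyte endfeet. Its gene lies on the minus strand of chromosome 18 of GRCm38, from 15389496 to 15410982. The controls A to D had 165, 167, 168 and 168 CPM, a coefficient of variation of 0.817%. The day 4 mice had 126, 103, 100.5 and 160.0 CPM and the day 6 mice 140.4, 142, 139 and 139 CPM. Every day 4 and day 6 mouse lay below every control, day 6 as tightly as the controls and day 4 widely. *Aqp4* fell on day 6, with a log2 fold change of -0.26 (standard error 0.0298, adjusted p = 1.50e-04). On day 4 it was -0.45 (standard error 0.115, adjusted p = 0.0488), a value that passed the test in 1 of the 8 fits that each left out 1 mouse, that without day 4 mouse D. In the 7 others the edgeR adjusted p lay between 0.0731 and 0.158.

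On day 8 the *Aqp4* values parted, at 171, 106, 251 and 148 CPM, with mouse C above all controls and mouse B below all of them. The day 13 mice had 189.9, 220.2, 134 and 136 CPM, with mice A and B above all controls and C and D below. The mean changes were 0.0019 on day 8 (adjusted p = 0.996) and 0.0017 on day 13 (adjusted p = 0.995). Without day 13 mice A and B the day 13 value was -0.31 (adjusted p = 0.00273). Mice A and B were left out after the data were seen, and mice C and D both lay below all controls. The sign of that value was therefore fixed by the choice of mice, and no likeness to the earlier days is drawn from it. A group mean near the control level therefore stood for mice on both sides of it.

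Under rapamycin *Aqp4* was lowest, at 94.6, 94.4, 104 and 113 CPM, with all 4 mice below every control and every day 6 and day 13 mouse. *Aqp4* fell against controls, with a log2 fold change of -0.72 (standard error 0.0579, adjusted p = 4.81e-05), and the value stayed between -0.78 and -0.69 with each mouse left out. In the fit of all 24 mice it was -0.72 (adjusted p = 0.0569). Against day 13 it was -0.73 (standard error 0.149, adjusted p = 0.00591), and -0.41 (adjusted p = 0.00564) without day 13 mice A and B. The group means in ascending order were *Tsc1-Cre+*-Rap 4 (101 ± 8.77 CPM), day 4 (122 ± 27.7), day 6 (140.2 ± 1.15), control (167 ± 1.37), day 8 (169 ± 60.9) and day 13 (169.9 ± 42.4; SD, n = 4 each). In that order only day 6 and control did not overlap among neighboring groups.

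*Slc1a2* encodes GLT-1, the main glutamate transporter of the forebrain, and lies on chromosome 2 from 102658659 to 102790784 on the plus strand. The controls had 4759, 4265, 4476 and 4475 CPM and the day 4 mice 4465, 4593, 4728 and 4541 CPM, within the same range. The day 6 mice had 4320.3, 3984, 4256 and 4146 CPM and the day 8 mice 3697, 4298, 3723 and 4078 CPM. Some of these mice lay below all controls and others among them. The log2 fold changes were -0.12 (adjusted p = 0.165) on day 6 and -0.20 (adjusted p = 0.0679) on day 8, and neither passed the test. Without day 8 mouse B the day 8 value was -0.24 (edgeR adjusted p = 0.0250), the only 1 of 8 fits without 1 mouse that passed. From day 4 to day 6 *Slc1a2* fell at -0.15 (standard error 0.0295, adjusted p = 0.0136). An antisense gene, *Gm13872*, shares 189 bases of exon with it and had a mean count of 693, far below the counts of *Slc1a2*.

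On day 13 *Slc1a2* had 3637, 3289, 4649 and 4424 CPM, with mice A and B the lowest of all 24 mice and mice C and D among the controls. The change was -0.19 (adjusted p = 0.264) with all mice and 0.01 (adjusted p = 0.941) without A and B. The *Tsc1-Cre+*-Rap 4 mice had 4512, 4485, 4382 and 4380.1 CPM, all inside the control range, with a change of -0.02 (adjusted p = 0.881). Against day 13 the rapamycin value was 0.16 (adjusted p = 0.329), with overlapping groups.

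*Slc1a3* encodes GLAST, the second glutamate transporter of astrocytes, and lies on the minus strand of chromosome 15 from 8634124 to 8710764. The controls had 533, 483, 466 and 483 CPM. The day 4 mice had 428, 432, 438 and 456 CPM, all below every control. The day 6 mice, at 447, 419.7, 429 and 423 CPM, and the day 8 mice, at 328, 419.9, 359 and 413 CPM, also lay below every control. *Slc1a3* fell on day 6 at -0.20 (standard error 0.0469, adjusted p = 0.0140), and on day 8 at -0.38 (standard error 0.0846, adjusted p = 0.0140). On day 4 the value was -0.16 (standard error 0.0470, adjusted p = 0.0749). The day 6 value lost significance without day 6 mouse B (adjusted p = 0.0504) or mouse C (adjusted p = 0.0561).

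On day 13 *Slc1a3* had 431, 374, 474 and 443 CPM, which overlapped the controls in mouse C, with a change of -0.21 (adjusted p = 0.108), or -0.10 (adjusted p = 0.349) without mice A and B. Unlike *Slc1a2*, its lowest mouse was a day 8 mouse, A. The *Tsc1-Cre+*-Rap 4 mice had 444, 432, 431 and 431 CPM, all below every control, with a change of -0.18 (adjusted p = 0.0733). The rapamycin and day 13 groups overlapped, with a difference of 0.02 (adjusted p = 0.871).

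*Glul* encodes glutamine synthetase, which converts the glutamate taken up by astrocytes to glutamine. It lies on the plus strand of chromosome 1 from 153899944 to 153909723. The controls had 1219, 1328, 1296 and 1279.9 CPM and the day 4 mice 1267, 1259, 1346 and 1179 CPM, which overlap. The day 6 mice had 1089.6, 1058, 1066 and 1058 CPM, all below every control. *Glul* fell on day 6 at -0.27 (standard error 0.0427, adjusted p = 0.00156), and from day 4 to day 6 at -0.25 (standard error 0.0376, adjusted p = 0.00232). The gene *Teddm2* on the opposite strand overlaps 116 bases of its exons, at a mean count of 228.

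On day 8 *Glul* had 822, 1132, 837 and 1089 CPM, with mice A and C far lower than B and D and all 4 below the controls. It fell at -0.41 (standard error 0.104, adjusted p = 0.0249), and this value lost significance without control mouse B, C or D or day 8 mouse A, with adjusted p between 0.0658 and 0.0709. The day 13 mice had 741, 517, 1246 and 1132 CPM, with mice A and B lowest of all 24 mice and mice C and D at or just below the controls. The day 13 change was -0.51 (standard error 0.238, adjusted p = 0.138), and -0.11 (adjusted p = 0.275) without A and B. Under rapamycin *Glul* had 1356, 1219, 1229.9 and 1297 CPM, which overlapped the controls, with a change of -0.01 (adjusted p = 0.973). Against day 13 the rapamycin value was 0.49 (adjusted p = 0.135), and 0.68 (edgeR adjusted p = 0.0375) without day 13 mouse C. The latter was the only 1 of 8 fits without 1 mouse that passed.

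The ratio of *Glul* to *Slc1a2* counts within a mouse was 0.286 ± 0.0227 (SD, n = 4) in controls, 0.244 ± 0.0241 on day 8, 0.221 ± 0.0509 on day 13 and 0.287 ± 0.0133 under rapamycin. The ratio of *Slc1a2* to *Slc1a3* was 9.15 ± 0.351 in controls, 10.5 ± 0.369 on day 4 and 10.4 ± 0.595 on day 8. Among 18 comparisons of 3 such ratios with the exact permutation test (two-sided, 70 arrangements), none had an adjusted p under 0.05. The smallest p that 4 mice against 4 allow, 0.0286, became 0.0735 after adjustment and was reached in 7 of the 18.

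*Slc6a11* encodes GAT-3, a GABA transporter of astrocytes, and lies on the plus strand of chromosome 6 from 114131241 to 114249952. The controls had 75.8, 67.4, 74.2 and 77.5 CPM. The day 4 mice had 87.7, 69.1, 66.6 and 71.1 CPM, the day 6 mice 64.6, 73.1, 69.9 and 69.1 CPM and the day 8 mice 54.5, 71.3, 64.1 and 65.7 CPM. These groups overlapped the controls, and the log2 fold changes were -0.00047 (adjusted p = 0.999), -0.10 (adjusted p = 0.216) and -0.22 (adjusted p = 0.0969), the last -0.27 (edgeR adjusted p = 0.0408) without day 8 mouse B. On day 13 the mice had 30.8, 16.4, 65.2 and 57.8 CPM, all below every control, with mouse B at the lowest percent of the control mean (22.3%) of any member in any mouse. The change of -0.81 (standard error 0.355, adjusted p = 0.117) did not pass the test, whereas the fit of all 24 mice gave -0.80 (adjusted p = 0.00911). Without day 13 mouse C it was -1.07 (edgeR adjusted p = 0.0476), and without mice A and B -0.27 (adjusted p = 0.0362).

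In *Tsc1-Cre+*-Rap 4 mice *Slc6a11* had 59.7, 65.9, 59.4 and 63.2 CPM, all below every control. It fell at -0.25 (standard error 0.0546, adjusted p = 0.0266), a call lost without control mouse A, C or D or rapamycin mouse A or C, with adjusted p between 0.0598 and 0.0825. Rapamycin and day 13 mice overlapped, with a difference of 0.55 (adjusted p = 0.252).

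*Gja1* encodes the main connexin of astrocyte gap junctions and lies on the plus strand of chromosome 10 from 56377330 to 56402513, with no overlapping gene in the annotation. The controls had 184, 175, 182 and 169 CPM and the day 4 mice 176, 142, 154 and 170.2 CPM. The day 6 mice had 137, 139, 149.7 and 138 CPM and the day 8 mice 116, 130.2, 111 and 127 CPM. Day 4 overlapped the controls, day 6 lay wholly below them, and day 8 lay wholly below day 6. *Gja1* fell on day 6 at -0.34 (standard error 0.0393, adjusted p = 1.76e-04) and on day 8 at -0.56 (standard error 0.0620, adjusted p = 4.52e-04), and both held in all 8 fits that left out 1 mouse. In 1 fit of all 24 mice, which shares the spread of the day 8 and day 13 mice, the day 8 value was -0.55 (adjusted p = 0.0699). The day 4 change was -0.14 (adjusted p = 0.242), and the step from day 6 to day 8 was -0.23 (adjusted p = 0.105).

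On day 13 *Gja1* had 49.3, 62.7, 119 and 145 CPM, all below every control, with mice A and B lower than every other mouse of the study. It fell at -0.93 (standard error 0.299, adjusted p = 0.0446), the largest fitted change of any member against controls. The adjusted p ranged between 0.00943 and 0.0988 over the fits that left out 1 mouse, and stayed under 0.05 in 2 of 8, those without day 13 mouse C or D. Without day 13 mice A and B the change was -0.43 (adjusted p = 0.00612), below the fold minimum. The day 13 and day 8 mice overlapped, with a difference of -0.37 (adjusted p = 0.578).

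Under rapamycin *Gja1* had 166, 161, 185 and 182 CPM, which overlapped the controls, with a change of -0.03 (adjusted p = 0.825). All 4 mice lay above every day 13 mouse, and the difference was 0.89 (standard error 0.294, adjusted p = 0.0433). That call was lost without day 13 mouse A or B or any rapamycin mouse, with adjusted p up to 0.0981. Without day 13 mice A and B together it was 0.39 (adjusted p = 0.0128). The mean level was 90.5% of control on day 4, 79.6% on day 6, 68.3% on day 8, 53.1% on day 13 and 97.8% under rapamycin.

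*Gjb6* encodes the second connexin of astrocytes and lies on the minus strand of chromosome 14 from 57123303 to 57133611. The controls had 28.7, 31.0, 38.3 and 34.9 CPM, a wider relative spread than the other members. The day 4 mice had 39.5, 40.0, 46.1 and 32.9 CPM and the day 6 mice 23.0, 24.2, 28.9 and 26.4 CPM. Day 4 mice A, B and C lay above all controls, and every day 6 mouse lay below every day 4 mouse. *Gjb6* fell from day 4 to day 6 at -0.64 (standard error 0.0892, adjusted p = 0.00146), with values between -0.72 and -0.56 over the fits that left out 1 mouse and -0.63 (adjusted p = 0.306) in the fit of all 24 mice. Against controls the day 4 change was 0.26 (adjusted p = 0.198). On day 6 *Gjb6* fell at -0.38 (adjusted p = 0.0144), which became an adjusted p of 0.0507 without day 6 mouse B.

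The day 8 mice had 24.2, 28.0, 31.5 and 27.1 CPM and the day 13 mice 13.2, 22.7, 34.3 and 40.1 CPM. Day 13 mouse A was the lowest of all mice and mouse D lay above all controls. The changes were -0.28 (adjusted p = 0.0969) and -0.29 (adjusted p = 0.480), and the day 13 value was 0.16 (adjusted p = 0.374) without mice A and B. Without day 8 mouse C the day 8 value was -0.34 (edgeR adjusted p = 0.0459), the only 1 of 8 fits without 1 mouse that passed. Under rapamycin *Gjb6* had 41.6, 38.1, 52.6 and 40.1 CPM, the highest group mean, with a change of 0.38 (adjusted p = 0.0693) against controls and 0.65 (adjusted p = 0.107) against day 13, the latter 0.90 (edgeR adjusted p = 0.0312) without day 13 mouse D. The ratio of *Gja1* to *Gjb6* counts was 5.41 ± 0.776 (SD, n = 4) in controls, 3.40 ± 0.442 on day 13 and 4.07 ± 0.430 under rapamycin. The log2 difference on day 13 was -0.67 (two-sided exact permutation p = 0.0286, adjusted p = 0.0735).

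*Slc4a4* encodes an electrogenic sodium bicarbonate cotransporter that buffers pH, and lies on the plus strand of chromosome 5 from 88886818 to 89239653. The controls had 315, 312, 303 and 309.9 CPM. The day 4 mice had 307, 281, 277 and 268 CPM, with mouse A inside the control range. The day 6 mice, at 281, 272, 284 and 275 CPM, and the day 8 mice, at 231, 250.02, 255 and 282 CPM, all lay below every control. *Slc4a4* fell on day 6 at -0.17 (standard error 0.0359, adjusted p = 0.00976) and on day 8 at -0.30 (standard error 0.0636, adjusted p = 0.0120), and both held in all 8 fits that left out 1 mouse. On day 4 the change was -0.13 (adjusted p = 0.141).

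On day 13 *Slc4a4* had 102, 123, 242 and 253 CPM, all below every control, with mice A and B at 33.0% and 39.8% of the control mean and mice C and D at 78.0% and 81.6%. The change was -0.80 (standard error 0.269, adjusted p = 0.0523), which missed the threshold. DESeq2 gave -0.78 (adjusted p = 0.0134), and the fit of all 24 mice -0.79 (adjusted p = 0.00117). Without day 13 mouse C or D the adjusted p was 0.0309 or 0.0191, and without mice A and B the change was -0.33 (adjusted p = 0.00337). The *Tsc1-Cre+*-Rap 4 mice had 266, 291, 294 and 324 CPM, which overlapped the controls, with a change of -0.08 (adjusted p = 0.526). All 4 lay above every day 13 mouse, and the difference was 0.71 (adjusted p = 0.0668). It passed without day 13 mouse C (0.88, edgeR adjusted p = 0.0319) or D (0.92, edgeR adjusted p = 0.0228).

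*Aldh1l1* encodes 10-formyltetrahydrofolate dehydrogenase, a cytosolic folate enzyme used as a marker of astrocytes. It lies on the plus strand of chromosome 6 from 90486427 to 90600203, and the antisense gene *Gm15756* overlaps 499 bases of its exons at a mean count of 4. The controls had 43.5, 43.1, 44.9 and 46.8 CPM and the day 4 mice 41.0, 44.4, 44.9 and 38.6 CPM. The day 6 mice had 31.4, 38.3, 35.97 and 36.04 CPM, all below every control. *Aldh1l1* fell on day 6 at -0.34 (standard error 0.0581, adjusted p = 0.00261), in all 8 fits that left out 1 mouse. The fall from day 4 to day 6 was -0.27 (adjusted p = 0.0311) and held in 2 of 8 such fits, those without day 4 mouse D or day 6 mouse B.

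On day 8 *Aldh1l1* had 59.2, 47.7, 57.6 and 43.5 CPM, all above every day 6 mouse, with mice A, B and C above all controls. The rise from day 6 to day 8 was 0.54 (standard error 0.0976, adjusted p = 0.0497), a call that held in 2 of 8 fits that left out 1 mouse (those without day 8 mouse B or D). Over all 8 such fits the adjusted p lay between 0.00936 and 0.183. It also failed with DESeq2 size factors, total counts alone, the replicate block or *Xist* as a covariate. On day 13 *Aldh1l1* had 45.8, 74.3, 54.4 and 56.0 CPM, with mouse B the highest of all mice and mouse A among the controls. Against controls the changes were 0.21 (adjusted p = 0.147) on day 8 and 0.35 (adjusted p = 0.0599) on day 13, the latter 0.31 (adjusted p = 0.00634) without mice A and B. The day 8 value passed without day 8 mouse D (0.29, edgeR adjusted p = 0.0305), and the day 13 value without day 13 mouse A (0.45, edgeR adjusted p = 0.0193). Each was the only 1 of 8 such fits that passed. The *Tsc1-Cre+*-Rap 4 mice had 40.0, 32.8, 42.4 and 36.6 CPM, all below every control and every day 13 mouse. *Aldh1l1* was lower under rapamycin than on day 13, at -0.59 (standard error 0.138, adjusted p = 0.0106), in all 8 fits that left out 1 mouse and at -0.54 (adjusted p = 0.00393) without day 13 mice A and B, while against controls the change was -0.23 (adjusted p = 0.0997), and -0.29 (edgeR adjusted p = 0.0473) without rapamycin mouse C.

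**Figure D3:**
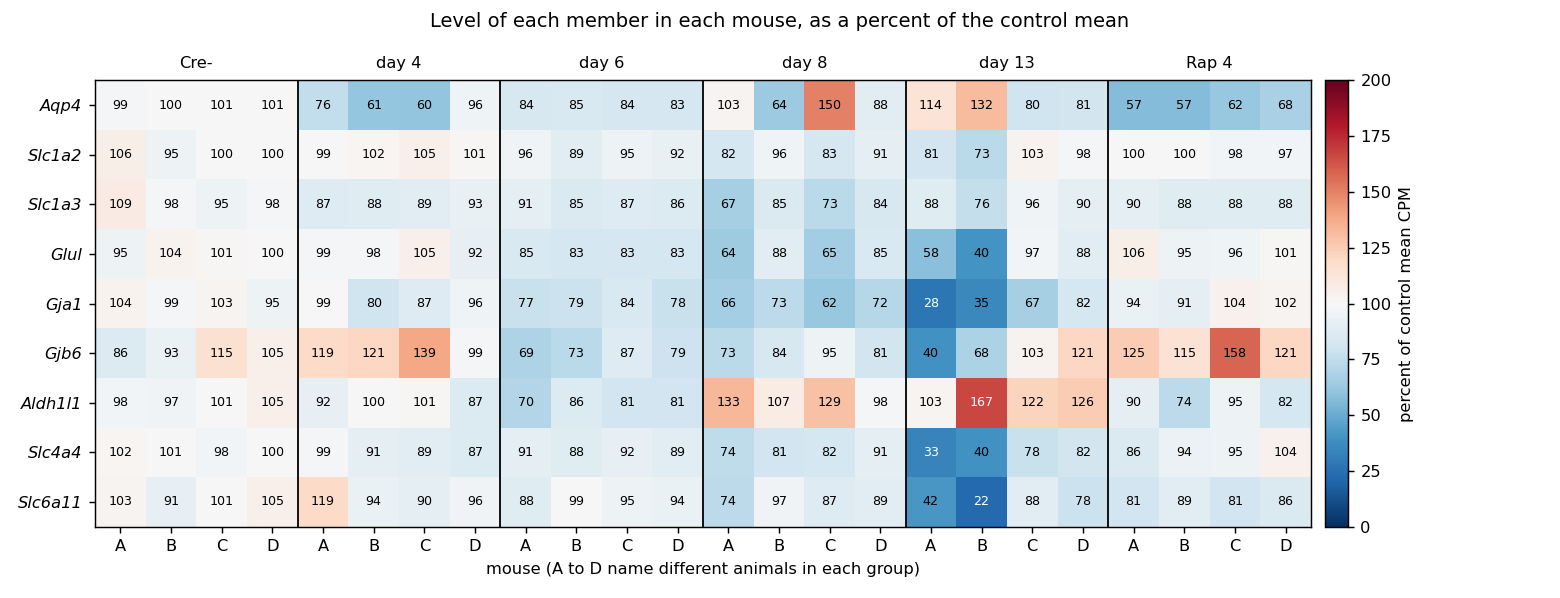
Level of each gene (rows) in each of the 24 mice (columns, grouped by time point and treatment), as a percent of the control mean, with 100% in white. *Slc1a2*, *Glul*, *Gja1*, *Gjb6*, *Slc4a4* and *Slc6a11* are lowest in day 13 mice A and B, while *Aqp4* and *Aldh1l1* of these mice are above 100%.

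The members did not part the mice in the same way. Day 13 mice A and B were the lowest 2 of all 24 mice in 6 of 9 members (*Slc1a2*, *Glul*, *Gja1*, *Gjb6*, *Slc4a4* and *Slc6a11*), and the 3 others were *Aqp4*, *Slc1a3* and *Aldh1l1*. The median over the 9 members was 57.9% of control in day 13 mouse A, 68.4% in B, 96.5% in C and 88.3% in D. In the day 6 mice it lay between 83.4% and 87.0%, and in the rapamycin mice between 90.4% and 97.5%. Across the 24 mice, the log2 CPM of 22 of the 36 pairs of members correlated positively (Pearson's r, a description of mice that share groups, with no test). *Aqp4* and *Aldh1l1* correlated positively with each other (0.52) and negatively with all 7 others. Without day 13 mice A and B, *Aqp4* and *Slc6a11* went from -0.40 to 0.12, *Aldh1l1* and *Gjb6* from -0.12 to 0.08 and *Aqp4* and *Slc4a4* from -0.43 to -0.08. *Gja1* and *Slc4a4* had an r of 0.96, or 0.80 without day 13 mice A and B, and *Slc1a2* and *Glul* 0.93, or 0.87. *Slc4a4* and *Slc6a11* had 0.88, or 0.52 without these mice.

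Reactive astrocyte genes were summed in the same mice over a list of 16 that includes *Gfap*, *Vim* and *Serpina3n*. The sum was 302 to 363 CPM in controls, 268 to 380.2 on day 4 and 282 to 306 on day 6. The day 8 mice had 966, 261, 1335 and 305 CPM, and the day 13 mice 1695, 2777, 582 and 646 CPM. Day 8 mice A and C, which have the higher sums, come from different animal series, and each series also holds 1 of the mice B and D. Mice A and C had lower *Glul*, *Slc1a3*, *Slc1a2*, *Gja1* and *Slc6a11* than B and D, and higher *Aqp4* and *Aldh1l1*. *Gjb6* and *Slc4a4* did not follow this split, since mouse C was highest in *Gjb6* and lay above mouse B in *Slc4a4*. On day 13, mice A and B had the higher sums, the lower *Glul*, *Slc1a2*, *Slc1a3*, *Gja1*, *Gjb6*, *Slc4a4* and *Slc6a11*, and the higher *Aqp4*. *Aldh1l1* was highest in day 13 mouse B and lowest in mouse A. The mice were not regrouped by these sums and the relation was not tested.

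**Figure D4:**
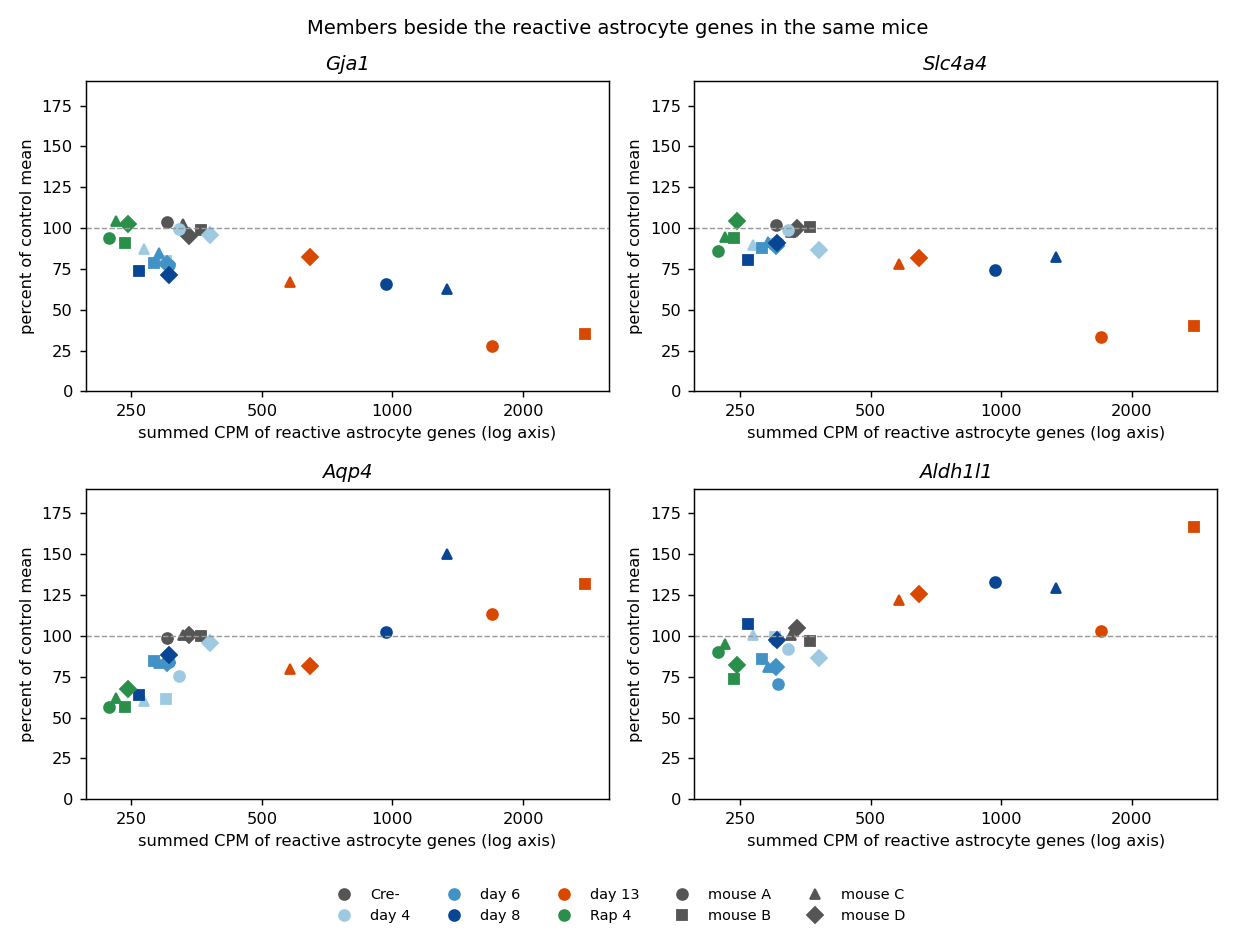
Level of *Gja1*, *Slc4a4*, *Aqp4* and *Aldh1l1* as a percent of the control mean (y axes, from 0) beside the summed CPM of the reactive astrocyte genes (x axes, log scale) in each of the 24 mice, colored by group with letters as marker shapes. Day 13 mice A and B lie at the right, low in *Gja1* and *Slc4a4*, and the *Tsc1-Cre+*-Rap 4 mice lie at the left, low in *Aqp4*.

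The counts of related genes stand beside shares of all genes that were DE of 0.680% on day 4, 1.32% on day 6, 3.99% on day 8, 16.5% on day 13 and 1.41% under rapamycin. With all 4 mice of day 13, 13 of 15 reactive astrocyte genes tested were DE higher and none lower, with a median log2 fold change of 1.91. *Ptx3*, a secreted pentraxin, rose by 5.86 (adjusted p = 0.0143) and *Cd44*, a hyaluronan receptor, by 4.39 (adjusted p = 0.0148). On day 8, 1 of 15 was DE, *Serpina3n*, a secreted protease inhibitor, at 1.42 (adjusted p = 0.0247). On day 6, 2 of 15 fell (against 3.81% of all genes) and 1 rose (against 6.24%). The falls were *Aspg*, DE at -0.62 (adjusted p = 0.0195), and *Gfap* at -0.33 (adjusted p = 0.00781). Under rapamycin, 4 of 15 were DE lower against controls, among them *Tnc* (tenascin C) at -1.03 (adjusted p = 4.22e-05) and *Gfap* at -0.77 (adjusted p = 3.81e-04). *Lcn2* (lipocalin 2) was DE higher at 1.32 (adjusted p = 0.0314). It is a gene of very low level here, with means of 0.186 CPM on day 6 and 0.345 CPM on day 8. *Aqp4* and *Gfap* both fell on day 6 and under rapamycin.

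Other genes of astrocyte identity were counted over a list of 20. Over all genes, 1.56% fell on day 4, 3.81% on day 6, 4.87% on day 8, 11.3% on day 13 and 2.31% under rapamycin. On day 6, 6.24% of all genes rose. These shares also stand beside the lists in the paragraphs below. On day 6, 7 of 20 fell and 1 rose, with a median log2 fold change of -0.12, and *Lcat*, a secreted cholesterol acyltransferase, was DE at -0.55 (adjusted p = 0.00175). On day 8, 7 of 20 fell and 2 were DE, *Id4* (an inhibitor of bHLH factors) at -0.92 (adjusted p = 0.00137) and *Cldn10* (a claudin) at -0.61 (adjusted p = 0.0105). On day 13, 3 were DE lower and 1 higher, with a median of -0.32: *Slc25a18*, a mitochondrial glutamate carrier, at -0.88 (adjusted p = 0.0340), *Fgfr2* at -0.57 (adjusted p = 0.00652), *Nfia*, a factor of glial development, at -0.53 (adjusted p = 0.00267), and *Ppp1r3c*, a glycogen regulator, at 0.67 (adjusted p = 0.0330). Under rapamycin 10 of 20 fell, none rose, and 4 were DE, *Fgfr2* at -0.64 (adjusted p = 0.00401), *Slco1c1* at -0.55 (adjusted p = 0.00542), *S100b* at -0.54 (adjusted p = 0.00107) and *Lcat* at -0.52 (adjusted p = 0.0169). On day 4, 3 fell, 1 rose and none was DE. The day 13 count of DE genes in this list stood near the share of all genes, 16.5%.

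Markers of some other cell types also changed in these groups. No interneuron or choroid plexus marker rose or fell on day 6, 8 or 13 or under rapamycin against controls. On day 6, 5 of 7 microglia markers, 2 of 3 oligodendrocyte precursor markers, 2 of 6 oligodendrocyte markers and 3 of 6 endothelial and mural markers fell (against 3.81% of all genes), and 3 of 6 excitatory neuron markers rose (against 6.24%). On day 8, 2 of 7 microglia, 1 of 3 precursor, 3 of 6 oligodendrocyte and 1 of 6 endothelial and mural markers fell, against 4.87% of all genes. In the same mice 2 of 6 excitatory neuron markers rose. On day 13, 2 of 7 microglia, 2 of 6 excitatory neuron, 1 of 6 endothelial and mural and 1 of 4 ependymal markers rose. At an adjusted p under 0.05, 3331 of 25085 genes changed on day 8, 1221 of them lower. On day 13, 6696 of 24920 genes changed, 2817 of them lower. The shares of all genes that rose on these days are not given here, so the rises of markers are counts only. No marker of these cell types fell on day 13, against 11.3% of all genes, and 16.5% of all genes were DE in either direction. Under rapamycin, 5 of 7 microglia, 1 of 3 precursor, 3 of 6 oligodendrocyte and 2 of 6 endothelial and mural markers fell, against 2.31% of all genes. The summed microglia markers were 254 to 304 CPM in controls, 229 to 242 on day 6, 268 to 382 on day 13 and 192 to 218 under rapamycin. The summed excitatory neuron markers were 2631 to 3416 CPM in controls and 3274 to 3641 on day 6, and no marker of any list was without counts in any group. Oligodendrocyte markers summed to 2932 to 4557 CPM in controls, 3039 to 3309 on day 6 and 2536 to 3455 under rapamycin. The part of these markers in the changes of the members was not tested.

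Genes that work beside *Aqp4* at the endfoot were followed over a list of 17 of water, potassium and anchoring genes. On day 6, 4 of 17 fell and none rose or was DE, and the falls included *Mlc1*, an endfoot membrane protein, at -0.31 (adjusted p = 3.52e-04). On day 13, 3 fell, 1 rose and 1 was DE, *Dmd* (dystrophin) at -0.53 (adjusted p = 0.0158). That count of DE genes lay below the share of all genes, 16.5%, and 11.3% of all genes fell. Under rapamycin 2 fell, *Kcnj16*, a potassium channel, being DE at -0.56 (adjusted p = 0.00586), and *Mlc1* at -0.30 (adjusted p = 0.00731). On day 8, 2 of 17 fell and on day 4, 2 fell and 2 rose, with none DE.

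Of 16 other genes of glutamate and glutamine handling, none fell on day 6 and 5 rose (against 6.24% of all genes), 2 of them DE: *Slc38a5*, a glutamine transporter, at 0.62 (adjusted p = 0.0135) and *Slc1a4*, a neutral amino acid exchanger, at 0.51 (adjusted p = 5.96e-05). On day 8, 3 were DE higher and none lower, with *Slc38a5* at 1.33 (adjusted p = 0.0268), *Slc1a4* at 1.28 (adjusted p = 2.92e-04) and *Slc38a2* at 0.54 (adjusted p = 0.0103). On day 13, 5 were DE higher, led by *Slc1a4* at 1.40 (adjusted p = 3.89e-04) and *Slc38a5* at 1.29 (adjusted p = 0.0241), and 3 lower, with the largest falls in *Slc25a18*, given above, and *Grm3*, a metabotropic glutamate receptor, at -0.78 (adjusted p = 0.0469). Under rapamycin none was DE and 3 fell. Against day 13, the rapamycin mice had 5 of 16 DE lower and 1 higher, beside 21.1% of all genes DE in either direction.

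Of 9 genes of GABA uptake and metabolism, *Maob*, which breaks down monoamines, was DE on day 8 at -0.53 (adjusted p = 0.0208) and fell on day 6 at -0.45 (adjusted p = 0.00706) with *Abat*, the GABA transaminase, at -0.14 (adjusted p = 0.0198). None of the 9 changed on day 4 or under rapamycin against controls, and day 13 results of this list are not reported here. Of 10 other connexins and pannexins, *Panx1* was DE on day 13 at 0.56 (adjusted p = 0.00937). The oligodendrocyte connexin *Gjb1* was DE under rapamycin at -0.93 (adjusted p = 0.00542) and on day 4 at -0.58 (adjusted p = 0.0155). None was DE on day 6 or day 8.

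Of 10 bicarbonate and pH genes, none was DE on day 4, 6 or 8. On day 13, *Slc16a1* (a monocarboxylate transporter) at 0.87 (adjusted p = 0.00230), *Slc4a7* at 0.59 (adjusted p = 6.94e-04) and *Slc4a10* at 0.52 (adjusted p = 0.00489), both bicarbonate transporters, were DE higher and *Car2*, a carbonic anhydrase, lower at -0.54 (adjusted p = 0.00806). *Car2* was also DE under rapamycin, at -0.55 (adjusted p = 0.0170). Of 8 folate and one-carbon enzymes tested beside *Aldh1l1*, 3 were DE higher on day 6, 4 on day 8 and 6 on day 13, none was DE lower, and under rapamycin none was DE against controls. The mitochondrial enzyme *Mthfd2* stood at 1.18 (adjusted p = 2.32e-05) on day 6, 2.65 (adjusted p = 2.06e-05) on day 8 and 3.02 (adjusted p = 8.30e-05) on day 13. *Aldh1l2*, the mitochondrial counterpart of *Aldh1l1*, stood at 2.61 (adjusted p = 0.00417) on day 13. Between *Tsc1-Cre+*-Rap 4 and day 13 mice, 6 of 8 of these enzymes were DE lower under rapamycin, in the direction of *Aldh1l1*. In that comparison, where 21.1% of all genes were DE, 2 of 10 bicarbonate genes, 4 of 10 connexins and pannexins and 13 of 15 reactive genes were DE lower and none DE higher, so the bicarbonate list stood near the share of all genes.

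For each member genes most like it were taken by Pearson's r of log2 CPM over the 24 mice among 18259 genes, as a description of mice that share groups. *Aqp4* was most like *Aif1* (0.91), *Tmeff2* (0.87) and *Ednrb* (0.87), and *Aldh1l1* most like *Psat1* (0.90), a serine synthesis enzyme, and *Ccdc51* (0.87). *Gja1* was most like *Acss1*, *Slc4a4* and *Klhdc7a* (0.96, 0.96 and 0.95) and *Slc4a4* most like *Lrp1b*, *Gm26512* and *Gm6145* (0.96 each). *Slc1a2* was most like *Glul*, *Ivd* and *Ndrg2* (0.93, 0.92 and 0.91), *Glul* most like *Gm14569*, *Nkain4* and *Cyp4f15* (0.96, 0.95 and 0.94). *Slc1a3* had the weakest likeness, with *Pla2g7*, *Pde8b* and *Ahcyl1* (0.79, 0.79 and 0.77). *Gjb6* was most like *Itih5*, *Tfcp2l1* and *Pnpla7* (0.92, 0.91 and 0.90) and *Slc6a11* most like *Cmpk2*, *Fads2* and *Gabrd* (0.95, 0.95 and 0.95). Without day 13 mice A and B, r fell to between 0.58 and 0.78 for the 3 genes most like *Slc6a11* and to 0.58 and 0.64 for *Gm26512* and *Gm6145*, while for *Aqp4* it stayed between 0.87 and 0.94.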

How the data were processed

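RNA-Seq was performed on the hippocampus of 24 mice in 6 groups of 4, grouped by the labels. The deposited tables hold whole read counts per gene, not normalized, 1 table per mouse. Per the submitters' processing notes and the paper, the authors trimmed with cutadapt 1.16.5, mapped to mm10 with STAR 2.7.2b and counted with featureCounts 1.6.4; the strand setting of the counting is not given in the sources used here. Total counts ranged from 28208561 to 126435936. Over all genes, mice of a group differed by more than counting error, with a chi-square per degree of freedom of 5.43 to 116.7. This need not hold for a single gene. *Aqp4* had a coefficient of variation of 0.817% in controls (lowest count 8762) and 0.819% on day 6 (lowest count 7154), a spread not larger than counting error.

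The 9 genes and the lists of related genes were chosen with earlier results of these data known. Each pair of groups was fitted alone with edgeR 4.0.16 in R 4.3.3 (filterByExpr, TMM factors, quasi-likelihood F test), with Benjamini-Hochberg adjustment over all genes tested. DE required an adjusted p under 0.05 and a log2 fold change beyond 0.5. CPM were computed from the counts with TMM factors. Alternatives were DESeq2 1.42.0, its size factors, total counts alone, no filter on low counts, no fold minimum, all 24 mice in 1 fit, *Xist* as a covariate, a block by replicate letter or by animal number series, and leaving out each mouse. Leaving out day 13 mice A and B was added after the data were seen. The fits were tested on simulated data. Of list genes that were DE, up to 4 were named, otherwise the 2 largest rises and the 2 largest falls. Other genes named from the lists were chosen after their values were seen. For each member the 3 most like genes of 18259 at a mean of 1 CPM or more were named. Some genes that these rules name are not reported here. Gene positions are from GENCODE M21 and promoter windows from RefSeq. No 2 libraries of the same group agreed within sampling noise. The labels give 4 animals a group.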

Additional observations from a re-analysis of the deposited data

Results flagged for a closer look

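Of 54 sets of 4 mice (9 genes in 6 groups), 2 held 1 mouse that stood far from the 3 others by Dixon's criterion, which chance passes in about 1 in 20 sets. *Slc1a3* in *Tsc1-Cre+*-Rap 4 mouse A was 444 CPM, beside 431 to 432 CPM in the 3 others. *Gja1* in day 6 mouse C was 150 CPM, beside 137 to 139 CPM in the others.

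Members were DE between *Tsc1-Cre+* groups, at both the adjusted p and the fold minimum, in 5 tests. Falls below the fold minimum are not among them: from day 4 to day 6, 4 members fell and 1 of these was DE. Between rapamycin and day 13 mice, *Aqp4* differed by a log2 fold change of -0.73 (adjusted p = 0.00591), *Gja1* by 0.89 (adjusted p = 0.0433) and *Aldh1l1* by -0.59 (adjusted p = 0.0106). Between day 6 and day 4, *Gjb6* differed by -0.64 (adjusted p = 0.00146), and between day 8 and day 6, *Aldh1l1* by 0.54 (adjusted p = 0.0497). The p-values are edgeR's, adjusted over all genes.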

How the results depend on the processing

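Over all alternatives, 1140 log2 fold changes of members were classed as the same, 58 changed sign, 30 were classed as weaker and 23 as stronger. These classes do not count every adjusted p that crossed 0.05. With 1 mouse left out, the fall of *Aqp4* on day 4 passed in 1 of 8 fits. That of *Gja1* on day 13 passed in 2 of 8. Where a change failed with all mice and a passing fit without 1 mouse is given, it was the only 1 of 8 that passed. The exception was *Slc4a4*, with 2 of 8 on day 13 against controls and 2 of 8 between rapamycin and day 13. The cause was not tested in any case. Members DE on day 4 went from 0 to 1 with no fold minimum, on day 6 from 0 to 7, on day 8 from 1 to 4 and to 0 with all 24 mice in 1 fit. On day 13 they went from 1 to 2 under DESeq2, *Xist* as covariate, no filter, the replicate block and total counts alone, to 3 with all 24 mice, and to 0 without day 13 mice A and B. Under rapamycin they went from 1 to 2 with no fold minimum and 0 with all 24 mice, and against day 13 from 3 to 5 with *Xist* or all 24 mice and to 1 without day 13 mice A and B. From day 4 to 6 they went from 1 to 4 with no fold minimum and 0 with all 24 mice, and from day 6 to 8 from 1 to 0 with DESeq2 size factors, *Xist*, the replicate block and total counts. The median log2 fold change of the members on day 6 was -0.29 with total counts, and between rapamycin and day 13 it was 0.015 without day 13 mice A and B. Total counts alone moved the median of all genes to -0.16 on day 13 and to 0.16 between rapamycin and day 13.

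Reversed values on day 4 were *Slc1a2* with *Xist* (-0.0033) and *Slc6a11* with no filter (0.0030). *Aqp4* on day 8 was -0.0017 with no filter, -0.022 with number series as block, -0.066 with the replicate block and -0.045 with total counts. *Aqp4* on day 13 was -0.14 with *Xist*, -0.0019 with no filter, -0.028 with the replicate block, -0.12 with total counts and -0.31 without mice A and B. Without these mice *Slc1a2* was 0.0096 and *Gjb6* 0.16 on day 13, *Slc1a2* -0.029 and *Slc1a3* -0.075 between rapamycin and day 13, and *Glul* 0.29, *Gja1* 0.13 and *Gjb6* 0.43 between day 13 and day 8. *Glul* under rapamycin was 0.0091 with *Xist*. Between day 13 and day 8, *Aqp4* was 0.00076 with DESeq2, 0.0096 with all 24 mice and 0.031 with the replicate block, *Gjb6* 0.068 with *Xist*, and *Slc1a2* -0.0046 with the replicate block and -0.061 with total counts.

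Leaving out each mouse in turn gave 0 to 1 members DE on day 4, 0 to 3 on day 13, 1 to 5 between rapamycin and day 13, and 0 to 1 between day 8 and day 6. The median of the members ranged from -0.53 to -0.20 on day 13, from -0.13 to -0.036 under rapamycin and from -0.23 to 0.0018 between day 13 and day 8. Ranges that crossed 0 were, on day 4, *Slc6a11* from -0.097 to 0.046 and *Glul* from -0.050 to 0.010, *Aqp4* from -0.25 to 0.17 on day 8 and from -0.13 to 0.13 on day 13, and, under rapamycin, *Slc1a2* from -0.042 to 0.0037 and *Glul* from -0.036 to 0.012. Others were *Slc1a3* from -0.051 to 0.063 between rapamycin and day 13, and, between day 6 and day 4, *Slc4a4* from -0.064 to 0.0091 and *Slc6a11* from -0.15 to 7.1e-05. Between day 13 and day 8 they were *Gjb6* from -0.26 to 0.21, *Glul* from -0.29 to 0.10, *Aqp4* from -0.18 to 0.25 and *Slc1a2* from -0.073 to 0.10.

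The replicate letters did not pair the mice: same-letter correlations lay between -0.453 and 0.286 over 9 comparisons, 0 had every r over 0.1, and in 0 was every mouse nearest its own letter. With the replicate block 9 of 81 member comparisons were DE, against 8 without it, 7 of them in both.

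Over all genes, the number DE was 172 on day 4 (107 with *Xist*, 29 with all 24 mice, 1054 with no fold minimum), 332 on day 6 (194, 84 and 2519), 1001 on day 8 (3331 with no fold minimum), 4101 on day 13 (6696 with no fold minimum, 2504 without mice A and B) and 352 under rapamycin (892 with no fold minimum, 162 with all 24 mice). Between rapamycin and day 13 it was 5123 (3328 without mice A and B), and between day 6 and day 4 it was 152 (19 with all 24 mice, 255 with no filter, 1042 with no fold minimum). Between day 8 and day 6 it was 57 (310 with DESeq2, 0 with *Xist*, 96 with all 24 mice, 192 with no filter, 27 with total counts, 104 with no fold minimum), and between day 13 and day 8 it was 0 (238 with DESeq2, 1343 with all 24 mice, 2 without day 13 mice A and B). Leaving out 1 mouse moved these counts by over 1.5 times on day 4 (83 without control D, 84 and 107 without day 4 B or C), day 6 (217 without day 6 C) and day 8 (586 without day 8 A). The same held between day 6 and day 4 (98 without day 4 C), between day 8 and day 6 (0 when any 1 of the day 6 mice or day 8 A was left out, 164 and 482 without day 8 B or D), and between day 13 and day 8 (1 without day 13 A or B, 57 without D).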
